A study of Mus musculus with 24 samples.

Results

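Mthfd2 and 9 other genes of serine synthesis, folate-linked one-carbon metabolism and the amino acid stress response were followed through mouse thoracic aorta after feeding with either of a pair of inhibitors selective for the inducible cyclooxygenase. The 10 genes were taken by symbol: Mthfd2, Mthfd1l, Mthfd1, Shmt2, Shmt1, Phgdh, Psat1, Psph, Asns and Atf4. Each matched 1 row of the 25941 genes in the table, and all 10 were among the 14451 genes with enough counts to test. Mthfd2 was chosen by its values in these libraries, for being higher with celecoxib alone, so they are described with no test in any comparison, and counts of called genes cover the other 9.

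The mice were adult wild-type C57BL/6 males, 10 to 12 weeks old. One group ate chow with celecoxib at 100 mg/kg/day, one ate chow with rofecoxib at 50 mg/kg/day, and the controls ate chow with no drug. Feeding lasted 3 weeks, and aortas were taken at zeitgeber time 11. Each group had 8 libraries of polyA RNA, described as biological replicates without naming an animal, so p-values measure only the spread between these samples if some share a source. The doses differ, so a comparison between the drugs is one between these feeding regimens.

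Serine is made from a glycolytic intermediate by Phgdh, Psat1 and Psph in turn. The serine hydroxymethyltransferases, Shmt2 in mitochondria and Shmt1 in the cytosol, pass a carbon from serine to tetrahydrofolate. Mthfd2 and Mthfd1l carry that carbon to formate inside the mitochondrion, and Mthfd1 takes formate back into folate in the cytosol for purine and thymidylate synthesis. Atf4 encodes the transcription factor of the integrated stress response, whose protein level is set largely by translation, and Mthfd2, Psat1, Phgdh, Shmt2 and Asns are known targets of it. Asns makes asparagine and is the textbook gene of the amino acid response.

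The Asns promoter is known for a C/EBP-ATF response element through which ATF4 acts, so it is shown beside that of Mthfd2. Both sequences are the 250 bases before the RefSeq start on the minus strand of GRCm38.p6, 5′ to 3′, and capitals mark TGATGNAA, the core searched for on both strands. They lie at chr6:7693210-7693459 for Asns and at chr6:83317605-83317854 for Mthfd2.
Asns: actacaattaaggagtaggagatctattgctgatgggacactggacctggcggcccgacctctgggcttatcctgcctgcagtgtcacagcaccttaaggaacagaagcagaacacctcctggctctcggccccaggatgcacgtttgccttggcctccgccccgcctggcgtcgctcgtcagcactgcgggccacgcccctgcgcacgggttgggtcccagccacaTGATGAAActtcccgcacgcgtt
Mthfd2: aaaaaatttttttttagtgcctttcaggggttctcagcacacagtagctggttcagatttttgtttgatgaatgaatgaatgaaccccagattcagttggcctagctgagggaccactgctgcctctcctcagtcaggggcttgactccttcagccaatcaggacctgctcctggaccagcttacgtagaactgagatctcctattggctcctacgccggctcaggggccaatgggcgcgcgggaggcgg
Asns held 1 match, TGATGAAA, which begins 23 bases before the start. No other member held TGATGNAA in a 300-base promoter window, which also covers the first 50 bases after the start, and no member held the E-box CACGTG. All 10 members matched a window, and Psat1 matched 2. Of the 32851 mouse promoter windows, 3.97% held TGATGNAA and 7.15% held CACGTG. A match is a description of these letters, and nothing follows about a factor from a window without one.

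Library totals ran from 21652432 to 21687906 counts, and libraries of a group correlated at r = 0.962 to 0.994 over genes on log2 CPM. Some libraries stood apart by cell type markers. Control 6 had summed levels of 5931 CPM for the 10 white and general adipocyte markers and 1650 CPM for the 10 brown adipocyte markers, against at most 3587 and 530 CPM in the other 7 controls. Control 6 also had 675 CPM over the 9 Schwann cell and nerve markers in the table, against at most 383 CPM in the other 7 controls. Celecoxib 7 had 732.5 CPM over the same markers, where the next highest celecoxib library had 411 CPM. Rofecoxib 2 had 584.7 CPM over 10 cardiac muscle markers, where the next highest rofecoxib library had 120.1 CPM. Smooth muscle markers were present in every library, at 35390 to 53240 CPM summed over 10 genes. Libraries also differed in how expression followed transcript GC content: the change in log2 CPM for each unit of GC fraction was on average 0.32 ± 0.88 in controls, 0.80 ± 0.95 with celecoxib and -1.12 ± 0.999 with rofecoxib (SD, n = 8). Values after a GC correction are therefore given where they end a call. Library titles also carry numbers of unstated meaning in a separate block for each group, so any batch they mark and the feeding cannot be told apart.

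Among the mitochondrial folate enzymes, Mthfd2 (ENSMUSG00000005667; mm9 chr6:83255483-83267802) was higher in every celecoxib library than in any other library. It encodes the mitochondrial methylenetetrahydrofolate dehydrogenase and cyclohydrolase, which is abundant in embryos and proliferating cells and low in most adult tissues. Its level, in counts relative to the TMM-scaled library size (CPM), had a lowest, median and highest value of 9.20, 12.9 and 16.2 in controls. With celecoxib these were 18.1, 22.4 and 30.1 CPM, and with rofecoxib 7.88, 11.9 and 14.2 CPM. The celecoxib group thus overlapped neither of the others, while controls and rofecoxib overlapped over most of their range. Celecoxib libraries were 1.795-fold above controls, a log2 fold change of 0.84 ± 0.13 (SE), and 1.99-fold above rofecoxib, at 0.99 ± 0.13. Rofecoxib against control gave -0.15 ± 0.13. Since Mthfd2 was chosen by these values, they are given as a description only. Of all genes tested, 0.298% had celecoxib and control groups that did not overlap, 1.67% had celecoxib and rofecoxib groups that did not, and 0.567% had rofecoxib and control groups that did not.

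**Figure D1:**
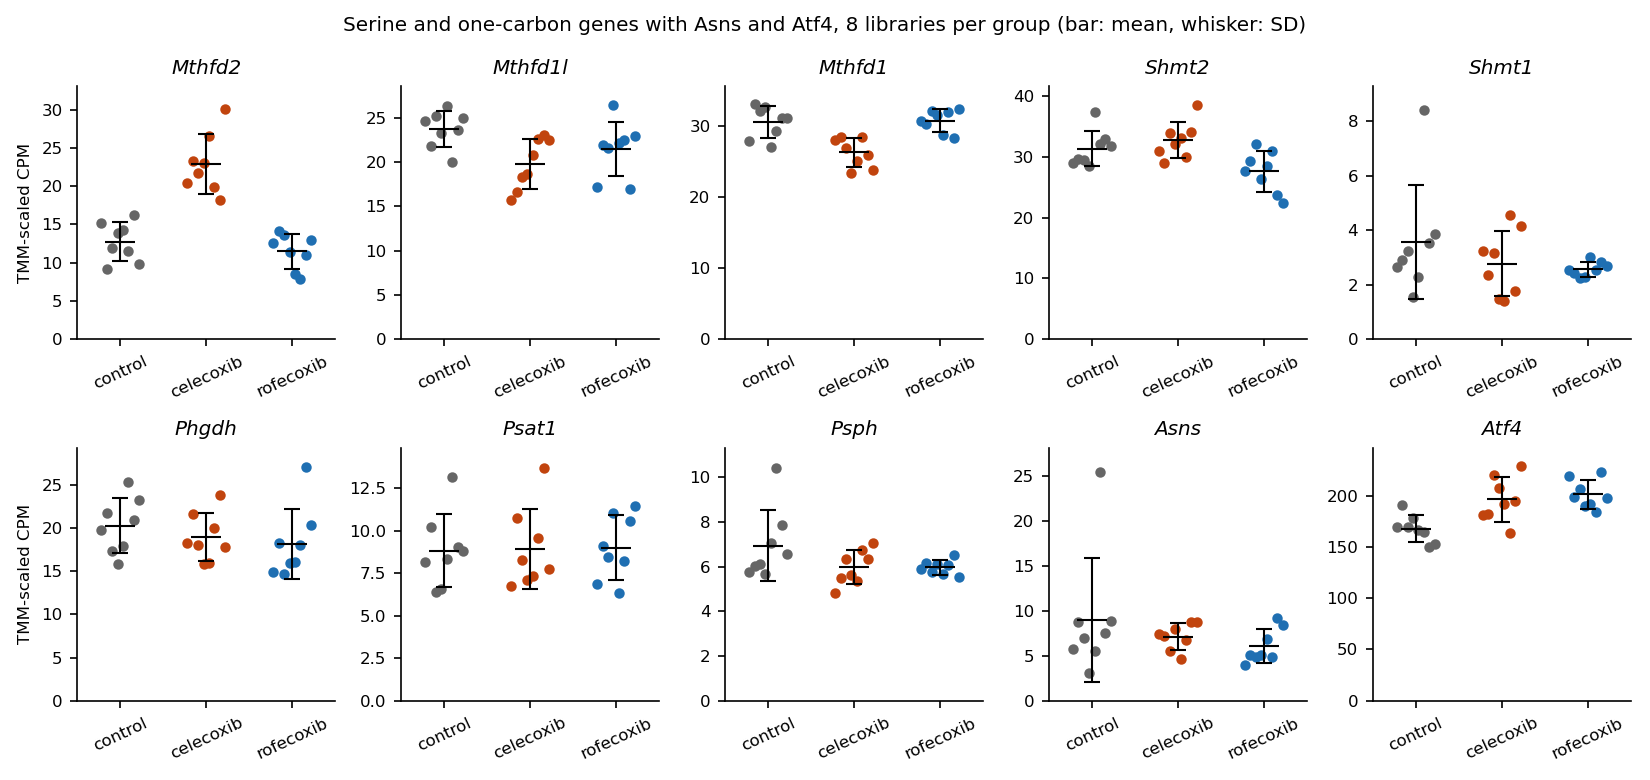
TMM-scaled CPM (vertical axes, starting at 0) of each of the 10 genes in the 8 control, 8 celecoxib and 8 rofecoxib libraries; points are libraries, the long bar is the mean and the whiskers are 1 SD. Mthfd2 sits at 18.1 to 30.1 CPM with celecoxib, above all other libraries, and single controls stand high for Asns at 25.4 CPM and Shmt1 at 8.42 CPM.

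Its partners in the same pathway did not share that pattern. Mthfd1l, the mitochondrial enzyme that releases formate (ENSMUSG00000040675; mm9 chr10:6179258-6373625), lay at 20.02, 24.1 and 26.3 CPM (lowest, median, highest) in controls, 15.7, 19.7 and 23.0 with celecoxib and 17.0, 22.1 and 26.4 with rofecoxib. All 8 celecoxib libraries were below the control mean and 4 were below the lowest control. The log2 fold change of -0.26 ± 0.09 missed the threshold (edgeR adjusted p = 0.133), as did -0.14 ± 0.09 with rofecoxib (adjusted p = 0.307). Mthfd2l, the paralog of Mthfd2, had 8.13 ± 0.427 CPM in controls, 8.42 ± 0.630 with celecoxib and 8.37 ± 1.04 with rofecoxib (SD, n = 8), a log2 difference of 0.05 ± 0.07 for celecoxib (edgeR adjusted p = 0.761).

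Mthfd1, the trifunctional cytosolic enzyme (ENSMUSG00000021048; mm9 chr12:77356017-77421009), fell with celecoxib, opposite to Mthfd2. Its lowest, median and highest levels were 27.1, 31.1 and 33.1 CPM in controls, 23.3, 26.4 and 28.5 with celecoxib and 28.3, 31.1 and 32.4 with rofecoxib. All 8 celecoxib libraries lay below the control mean and 5 lay below every control, while controls and rofecoxib covered nearly the same range. The log2 fold change was -0.22 ± 0.05 against control (edgeR adjusted p = 0.039) and -0.23 ± 0.05 against rofecoxib (adjusted p = 0.00483). Rofecoxib against control gave 0.01 ± 0.05 (95% interval -0.10 to 0.12). The difference from rofecoxib held in all 24 fits that left out a library and after GC correction (-0.26, edgeR adjusted p = 0.00714). The call against control was lost in 10 of the 24 fits, with the adjusted p at most 0.0935, reached without celecoxib 5. The 10 left out celecoxib 3, 4, 5, 7 or 8, or control 2, 3, 4, 7 or 8.

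Mthfd1 was 1 of 9 members called for celecoxib against control, where 1.41% of all genes tested were called and 0.498% were lower. With rofecoxib 1 of 9 was called, Atf4, which was higher, beside 5.3% of all genes called, 2.43% higher and 2.87% lower. Between the drugs 2 of 9 were called, Mthfd1 and Shmt2, beside 22.7% of all genes, 11.5% higher and 11.2% lower, a share close to that background. Both drugs were set against the same controls, so the values of these comparisons are not independent of each other.

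**Figure D2:**
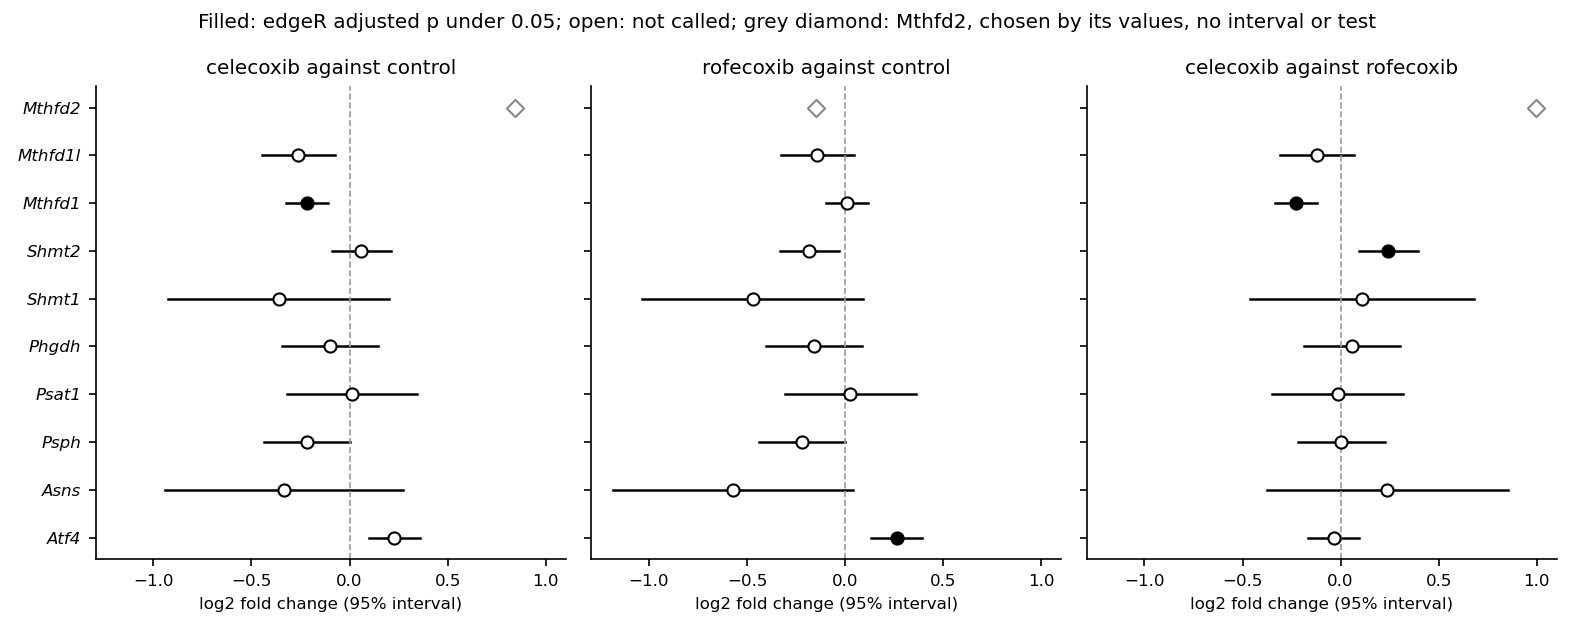
Log2 fold changes (horizontal axes) of the 10 genes in the 3 comparisons, with 95% intervals for all but Mthfd2; filled points passed an edgeR adjusted p of 0.05, open points did not, and the grey diamond is Mthfd2, which was not tested. Mthfd2 stands at 0.84 and 0.99 in the celecoxib panels, Mthfd1 at -0.22 and -0.23, and Atf4 at 0.23 and 0.26 against control.

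Of the serine hydroxymethyltransferases, Shmt2 (ENSMUSG00000025403; mm9 chr10:126953993-126959693) was the more abundant per length. It ran at 28.6, 30.7 and 37.3 CPM (lowest, median, highest) in controls, 29.0, 32.6 and 38.5 with celecoxib and 22.5, 28.04 and 32.1 with rofecoxib. Celecoxib libraries overlapped the controls almost fully and were all above the rofecoxib mean, with 4 above its highest library. The log2 difference between the drugs was 0.24 ± 0.07 (edgeR adjusted p = 0.0197). Neither drug differed from control past the threshold, at 0.06 ± 0.07 for celecoxib (adjusted p = 0.706) and -0.18 ± 0.07 for rofecoxib (adjusted p = 0.110). Shmt2 transcripts are 57.4% GC, and over the 24 libraries the Shmt2 level correlated with the GC slope of the same library (r = 0.87; 0.79 for deviations from group means). After GC correction the difference between the drugs was 0.10 with an adjusted p of 0.224. It was also lost without celecoxib 8 (edgeR adjusted p = 0.0537) and without rofecoxib 8 (0.0505).

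Shmt1 (ENSMUSG00000020534; mm9 chr11:60601404-60625422) was the least abundant member, with 30 to 185 counts per library. Controls ran from 1.55 to 8.42 CPM with a median of 3.08, celecoxib from 1.42 to 4.54 with a median of 2.77 and rofecoxib from 2.24 to 3.01 with a median of 2.53. The highest value was control 6, and the remaining controls reached 3.86 CPM. The log2 fold changes against control, -0.36 ± 0.27 for celecoxib and -0.47 ± 0.27 for rofecoxib, missed the threshold (edgeR adjusted p = 0.504 and 0.262). Without control 6 they were -0.05 and -0.16. In whole tissue, fewer cells of a type and less RNA per cell cannot be told apart. Shmt1 moved with the brown adipocyte markers, at r = 0.94 for deviations from group means over 24 libraries and 0.92 without control 6. These 10 markers, all tested and none at 0 in any library, summed to 160 to 1650 CPM in controls, 100.5 to 519 with celecoxib and 231 to 427 with rofecoxib. Their part in the Shmt1 values was not tested.

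The 3 serine synthesis enzymes gave no call by edgeR or DESeq2 in any comparison, and only Psph with rofecoxib had an unadjusted p under 0.05 in edgeR. Phgdh, which commits carbon to the pathway (ENSMUSG00000053398; mm9 chr3:98116891-98144115), had 15.9, 20.4 and 25.3 CPM (lowest, median, highest) in controls, 15.9, 18.1 and 23.9 with celecoxib and 14.7, 17.1 and 27.0 with rofecoxib. Its 3 groups overlapped broadly, with log2 differences from control of -0.10 ± 0.12 and -0.16 ± 0.12 (edgeR adjusted p = 0.708 and 0.395). Psat1, the aminotransferase of the middle step (ENSMUSG00000024640; mm9 chr19:15978966-16022029), had 6.42, 8.56 and 13.1 CPM in controls, 6.76, 8.02 and 13.7 with celecoxib and 6.34, 8.76 and 11.5 with rofecoxib. Its groups covered the same range, and the celecoxib difference was 0.01 ± 0.16 (-0.32 to 0.34; edgeR adjusted p = 0.978). Psph, the phosphatase that completes serine (ENSMUSG00000029446; mm9 chr5:130271232-130293331), had 5.69, 6.36 and 10.4 CPM in controls, 4.84, 5.98 and 7.06 with celecoxib and 5.53, 5.99 and 6.53 with rofecoxib. Both drugs stood at a log2 difference of -0.22 ± 0.11 from control, which missed the threshold (edgeR adjusted p = 0.295 and 0.183), and both were -0.11 without control 6.

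Asns (ENSMUSG00000029752; mm9 chr6:7624967-7643456) varied more among controls than between groups. It ran at 3.06, 7.30 and 25.4 CPM in controls, 4.64, 7.29 and 8.79 with celecoxib and 3.98, 5.11 and 9.24 with rofecoxib. Control 6 held the highest value and the next control was at 8.85 CPM. Neither difference from control passed, at -0.33 ± 0.29 for celecoxib (edgeR adjusted p = 0.582) and -0.57 ± 0.29 for rofecoxib (adjusted p = 0.211). Without control 6, the celecoxib difference changed sign to 0.10 and the rofecoxib difference was -0.13.

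Across libraries the levels of Asns, Phgdh and Psat1 followed adipocyte markers, and those of Phgdh and Psat1 also followed Schwann cell markers. For deviations from group means over 24 libraries, Asns and the score of the white and general adipocyte markers, their mean log2 CPM, correlated at r = 0.93, and at 0.92 without control 6. Phgdh followed the same score at 0.80 and Psat1 at 0.65, or 0.79 and 0.56 without control 6. With the Schwann cell and nerve score Psat1 had 0.72 and Phgdh 0.58, or 0.66 and 0.52 without control 6. Celecoxib 7 and control 6 had the highest Schwann cell marker sums and also the highest Psat1 levels, 13.7 and 13.1 CPM. The white adipocyte markers, all 10 tested and none at 0 in any library, summed to 1320 to 5931 CPM in controls, 1752 to 3094 with celecoxib and 1664 to 3643 with rofecoxib. Schwann cell markers, 9 of 10 in the table and all 9 tested, summed to 275 to 675 CPM, 288 to 732.5 CPM and 265 to 520 CPM in the same order. The part of either list in these genes' values was not tested. Mthfd2 had r = -0.23 with the white adipocyte score, -0.24 with the Schwann score, 0.32 with the smooth muscle score and -0.31 with the macrophage score. Its largest r in size among the 11 lists was -0.54, with the lymphocyte score. That score rests on 4 tested markers, and the 10 listed summed to at most 21.6 CPM in any library. These points share a library and its depth, and the correlations are descriptions.

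**Figure D3:**
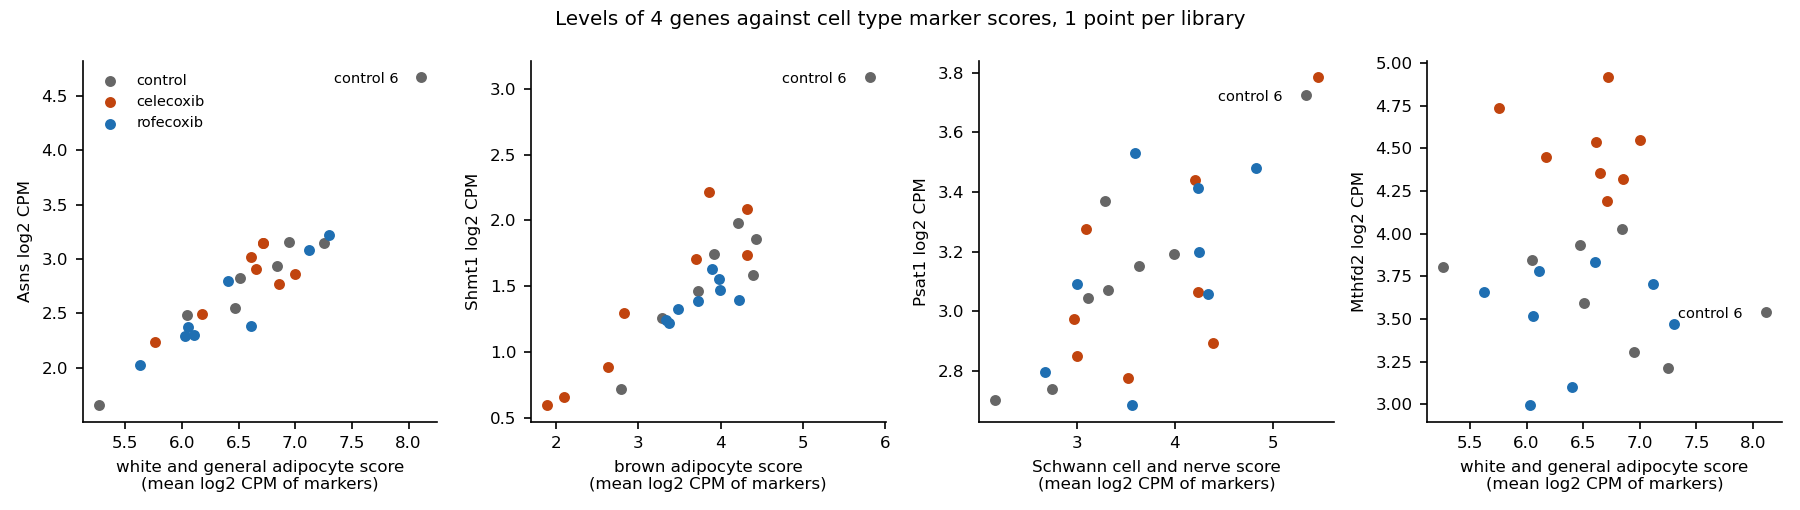
Log2 CPM of Asns, Shmt1, Psat1 and Mthfd2 (vertical axes) against cell type marker scores, the mean log2 CPM of the markers (horizontal axes), with 1 point per library in the colours of the 3 groups and control 6 marked. Asns and Shmt1 are higher where their adipocyte scores are higher, in all groups, and the celecoxib libraries stay highest for Mthfd2 across the white adipocyte score.

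The members did not all move together among libraries. Phgdh, Psat1 and Asns moved together within groups (r = 0.76 for Phgdh with Psat1 and 0.70 for Phgdh with Asns, over 24 deviations from group means). Mthfd2 had -0.31 with Phgdh, -0.14 with Psat1, -0.27 with Asns, 0.11 with Shmt2 and 0.22 with Atf4. Shmt1 and Psph had r = 0.67 with each other, which was 0.47 without control 6. Both also moved with Asns, Shmt1 at 0.68 and Psph at 0.62, or 0.50 and 0.32 without control 6. Psat1 had 0.52 with Psph and Shmt1 had 0.44 with Phgdh, or 0.36 and 0.34 without control 6.

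**Figure D4:**
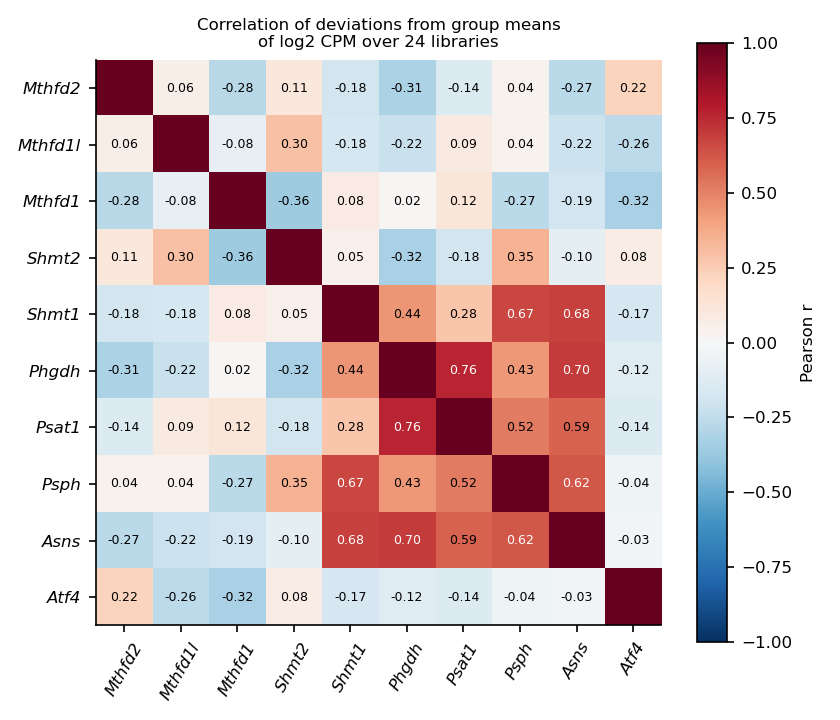
Pearson's r between the 10 genes (both axes), computed on deviations of log2 CPM from group means over 24 libraries; red is positive and blue negative. Phgdh has 0.76 with Psat1 and 0.70 with Asns. Shmt1 has 0.68 with Asns, 0.67 with Psph and 0.28 with Psat1, and the Mthfd2 row runs from -0.31 to 0.22.

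Atf4 (ENSMUSG00000042406; mm9 chr15:80085412-80088172) was by far the most abundant member and rose with rofecoxib. Its lowest, median and highest levels were 149, 168 and 191 CPM in controls, 164, 193 and 229 with celecoxib and 184, 198 and 223 with rofecoxib. All 8 rofecoxib libraries were above the control mean and 6 were above the highest control; with celecoxib 7 were above the mean and 5 above the highest. The log2 fold change was 0.26 ± 0.06 for rofecoxib (edgeR adjusted p = 0.0231). For celecoxib 0.23 ± 0.06 missed the threshold (adjusted p = 0.0643). The drugs did not differ past the threshold, at -0.04 ± 0.06 (-0.17 to 0.09; edgeR adjusted p = 0.717). The rofecoxib call was lost without control 7 (adjusted p = 0.0578), without rofecoxib 7 (0.0516) and without control 6 and rofecoxib 2 together (0.0542). The celecoxib value passed in DESeq2 (adjusted p = 0.0237), with the Schwann cell score as a covariate (0.0433) and without celecoxib 6 (0.0359). Mthfd2 was chosen for being higher with celecoxib alone, so its overlap with the controls under rofecoxib was part of that choice. A link between Atf4 and Mthfd2 levels was not tested.

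Divided by transcript length, Atf4 had 97.2 ± 7.70 CPM per kb in controls (SD, n = 8) and the enzymes far less. Shmt2 followed at 13.7 ± 1.27, Phgdh at 10.7 ± 1.68 and Mthfd1 at 9.42 ± 0.687 CPM per kb. Mthfd1l and Mthfd2 lay within their spread of each other, at 6.43 ± 0.546 and 6.12 ± 1.22 CPM per kb. Asns at 4.465 ± 3.425, Psph at 4.01 ± 0.912 and Psat1 at 3.38 ± 0.820 CPM per kb also overlapped, and Shmt1 was lowest at 1.25 ± 0.732. With celecoxib, Mthfd2 reached 10.99 ± 1.86 CPM per kb, behind Shmt2 at 14.3 ± 1.29 and within the spread of Phgdh at 10.0 ± 1.46.

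Beyond the members, none of 26 tested genes of folate and one-carbon metabolism was called by edgeR for either drug against control. Of all genes, 1.41% were called with celecoxib and 5.3% with rofecoxib. At an unadjusted p under 0.05 there were 8 of the 26 with celecoxib and 4 with rofecoxib, and DESeq2 called 1 and 2. With GC correction edgeR called 1 of the 26, higher with celecoxib, and none with rofecoxib. Their median log2 fold change was -0.11 with celecoxib and -0.06 with rofecoxib, beside -0.0053 and -0.00021 for all genes tested. Tyms, the thymidylate synthase, had -0.18 ± 0.07 with celecoxib (edgeR adjusted p = 0.195). Aldh1l2, which oxidises mitochondrial formyl-folate, had -0.21 ± 0.10 (adjusted p = 0.285). Between the drugs 3 were higher with celecoxib and 2 lower, beside 22.7% of all genes called; these 5 became 3 without celecoxib 5 or without rofecoxib 8. Fpgs, which adds glutamates to folate, was higher at 0.33 ± 0.08 (edgeR adjusted p = 0.00597). After GC correction only Amt of the glycine cleavage system was called between the drugs in this list, at 0.30 (edgeR adjusted p = 0.0336).

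Purine synthesis, a main user of folate carbons, showed no call among 12 genes with celecoxib against control in edgeR or DESeq2. With celecoxib 3 had an unadjusted p under 0.05, and with rofecoxib 1 was called. Of all genes, edgeR called 1.41% and 5.3% in these comparisons. Ppat, the committed step, had 13.9 ± 1.79 CPM in controls, 12.4 ± 1.13 with celecoxib and 16.6 ± 1.204 with rofecoxib (SD, n = 8). It rose with rofecoxib, at a log2 fold change of 0.26 ± 0.07 (edgeR adjusted p = 0.040; 0.159 after GC correction; lost in 11 of 24 fits that left out a library) and was lower with celecoxib than with rofecoxib by a log2 difference of -0.42 ± 0.07 (adjusted p = 0.00124; 0.0086 after GC correction). Adss, Paics and Prps2 were also lower with celecoxib than with rofecoxib, so 4 of 12 were called, beside 22.7% of all genes called and 11.2% lower. Those 3 calls were lost after GC correction.

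In serine and glycine transport and use, 0 of 19 tested genes were called with celecoxib by edgeR or DESeq2, with 2 at an unadjusted p under 0.05. In that comparison edgeR called 1.41% of all genes. With rofecoxib 1 rose, the amino acid transporter Slc38a2, at 0.34 ± 0.08 (edgeR adjusted p = 0.0238, and 0.0515 after GC correction), beside 2.43% of all genes higher. This call was lost without rofecoxib 7 or 8 or control 5 or 7. Between the drugs 1 was higher with celecoxib, Sfxn3, and 2 were lower, Slc38a2 and Serinc1, beside 22.7% of all genes called. These calls were lost in 11, 9 and 12 of 24 fits that left out a library, and none of the 3 was left without celecoxib 3, 5, 6, 7 or 8, rofecoxib 7 or 8 or control 8. All 3 were also lost after GC correction (edgeR adjusted p = 0.11, 0.26 and 0.98). Among 18 genes of the methionine cycle and transsulfuration, 1 was called with each drug against control. Of all genes, 1.41% were called with celecoxib and 5.3% with rofecoxib. Gclm, a subunit of glutathione synthesis, fell with celecoxib by a log2 change of -0.16 ± 0.04 (edgeR adjusted p = 0.0473). That call was lost in 17 of 24 fits that left out a library and after GC correction (adjusted p = 0.0674). Mat2a, which makes S-adenosylmethionine, rose with rofecoxib at 0.31 ± 0.08 (edgeR adjusted p = 0.0259; 0.0779 after GC correction), and the call was lost without rofecoxib 1, 7 or 8 or control 5 or 7. With GC correction edgeR called another 1 of the 18 with each drug, higher with celecoxib and lower with rofecoxib. In that fit 2.22% and 1.24% of all genes were called. Between the drugs 2 of the 18 were called, beside 22.7% of all genes. The spermidine synthase Srm was higher with celecoxib at 0.29 ± 0.06 and Amd1 lower at -0.30 ± 0.07. After GC correction the Srm call was lost (0.08, edgeR adjusted p = 0.353). Amd1 stayed called at -0.15 (adjusted p = 0.0413).

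**Figure D5:**
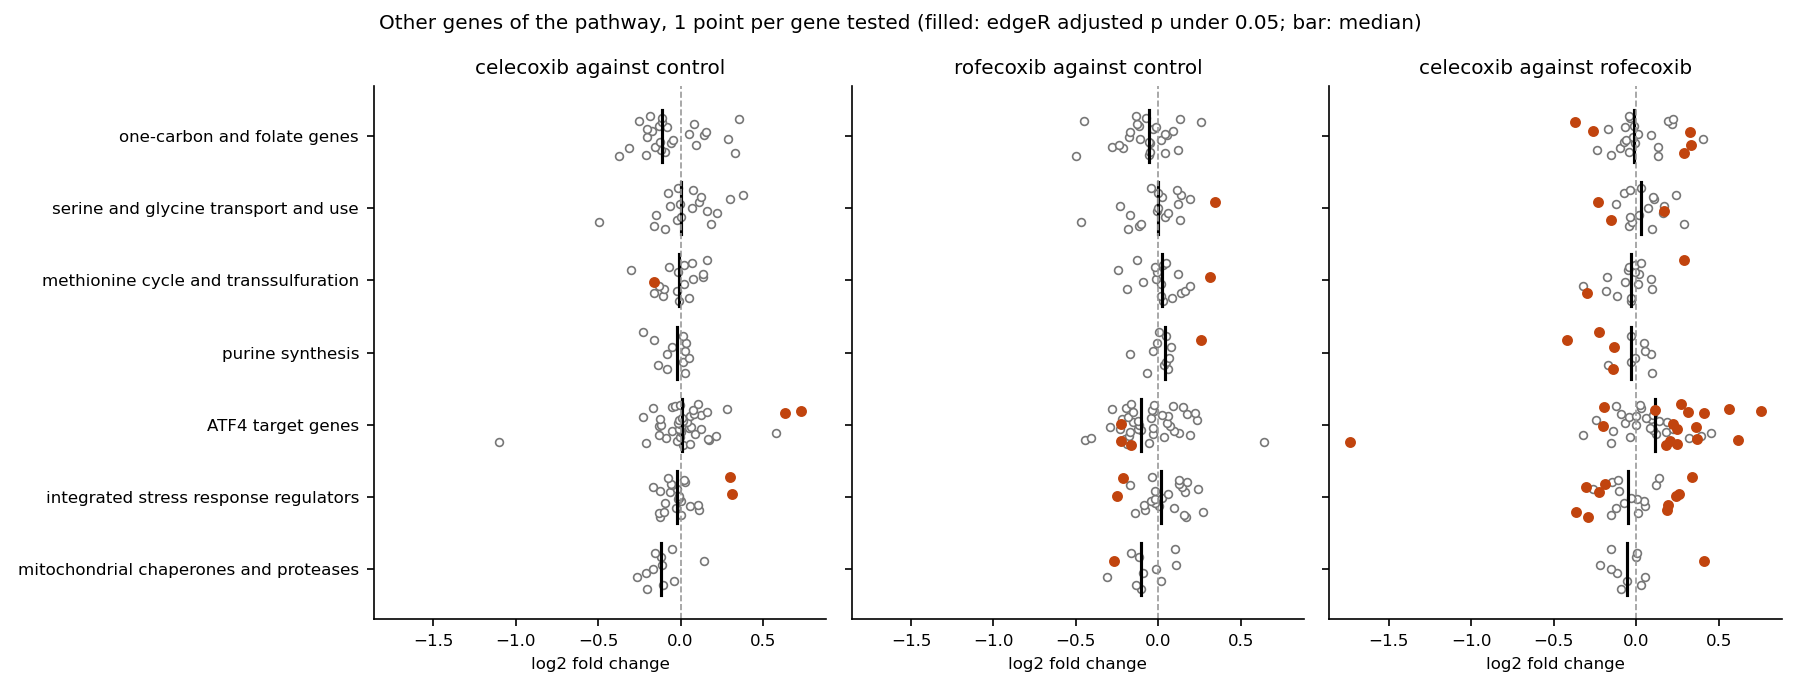
Log2 fold changes (horizontal axes) of the tested genes of 7 gene lists in the 3 comparisons, 1 point per gene; filled points passed an edgeR adjusted p of 0.05 and the bar is the list median. Against control nearly all points are open, with Stc2 at 0.73 and Slc7a3 at 0.63 the called ATF4 targets with celecoxib.

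Of 43 tested ATF4 target genes outside the members, 2 rose with celecoxib and none fell, beside 0.913% and 0.498% of all genes, with a list median of 0.01. Stc2, a secreted stanniocalcin, went from 12.3 ± 3.29 CPM in controls to 20.3 ± 4.799 with celecoxib and was 12.0 ± 1.99 with rofecoxib (SD, n = 8). Its log2 fold change was 0.73 ± 0.15 (edgeR adjusted p = 0.0223), and the call was lost without celecoxib 5 (adjusted p = 0.0591). Slc7a3, a cationic amino acid transporter, rose by 0.63 ± 0.13 from a low level of 1.03 ± 0.150 CPM (adjusted p = 0.0233), and was lost without celecoxib 5 or without control 2 (at most 0.0608). The usual stress targets were not called with celecoxib: Ddit3 had 0.09 ± 0.06, Chac1 0.21 ± 0.19, Trib3 0.28 ± 0.18, Sesn2 -0.23 ± 0.11 and Pck2 0.01 ± 0.06. Slc7a11 had too few counts to be tested.

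With rofecoxib 3 of the 43 fell and none rose, beside 2.87% and 2.43% of all genes. Their median log2 fold change was -0.10, beside -0.00021 for all genes tested. Mars, the methionyl-tRNA synthetase, had -0.23 ± 0.05 (edgeR adjusted p = 0.0135; 0.0211 after GC correction). Atf5, a related transcription factor, had -0.22 ± 0.05 and Aars, the alanyl-tRNA synthetase, -0.17 ± 0.04 (adjusted p = 0.0192 and 0.0323). Both calls were lost after GC correction (adjusted p = 0.619 and 0.305), and the 3 calls became 1 without rofecoxib 8 or control 7. Between the drugs 14 of the 43 were higher with celecoxib and 3 lower, 39.5% called, where 22.7% of all genes were. After GC correction 9 were higher and 4 lower, 30.2%, beside 9.44% of all genes. Those higher with celecoxib than with rofecoxib included Stc2 at 0.76 ± 0.15 (edgeR adjusted p = 0.00247). The tRNA synthetases Cars at 0.37 ± 0.07, Yars at 0.27 ± 0.06 and Mars at 0.23 ± 0.05 were also higher (adjusted p = 0.00197, 0.00356 and 0.00277). These 3 stayed called after GC correction. With celecoxib against control they had 0.16, 0.11 and -0.0017, none called (edgeR adjusted p = 0.237, 0.347 and 0.989). With rofecoxib against control Cars had -0.20 and Yars -0.16, also not called (adjusted p = 0.0787 and 0.0829). In the comparison between the drugs, 4 of 10 fibroblast markers were higher with celecoxib, with a list median of 0.28, beside 11.5% of all genes higher. All 10 tested macrophage markers had positive values, with a median of 0.29 and none called by edgeR or DESeq2 (2 at an unadjusted p under 0.05). Fibroblast markers summed to 10680 to 15360 CPM with celecoxib and 10190 to 11860 CPM with rofecoxib, and macrophage markers to 176 to 376 CPM and 132 to 280 CPM. No fibroblast or macrophage marker in the table was at 0 in any library. Their part in the ATF4 target values was not tested.

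Among 24 regulators of the integrated stress response and its neighbours, 2 rose with celecoxib and none fell, beside 0.913% and 0.498% of all genes. Hspa5, the endoplasmic reticulum chaperone BiP, went from 490 ± 23.9 CPM in controls to 610 ± 63.1 with celecoxib and 510 ± 48.9 with rofecoxib (SD, n = 8), a log2 fold change of 0.31 ± 0.06 (edgeR adjusted p = 0.0155). Xbp1, a transcription factor of the unfolded protein response, went from 139.8 ± 12.2 to 172 ± 13.97 CPM, at 0.30 ± 0.06 (adjusted p = 0.0178). Both calls held in all 24 fits that left out a library and after GC correction. With rofecoxib none rose and 2 fell, beside 2.43% and 2.87% of all genes. These were Gcn1l1, an activator of the kinase that senses uncharged tRNA, at -0.25 ± 0.04 (edgeR adjusted p = 0.00644) and Tsc2, an inhibitor of mTOR signalling, at -0.22 ± 0.06 (adjusted p = 0.0389). Both were lost after GC correction (adjusted p = 0.111 and 0.118), and Tsc2 without rofecoxib 7 or 8 or control 2, 5, 6 or 7. Between the drugs 5 were higher with celecoxib and 5 lower, beside 22.7% of all genes called, and these 10 became 6 without celecoxib 8. After GC correction 3 were higher and 2 lower, beside 9.44% of all genes called. Myc, which is known to drive Mthfd2 in cancer cells, had -0.02 ± 0.15 with celecoxib.

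The genes whose pattern was most like that of Mthfd2 were ranked by Pearson's r of log2 CPM over the 24 libraries, with r for deviations from group means beside it. Mxd4 had 0.94 and 0.79, Bcl2l1 had 0.94 and 0.86, and Map3k6 had 0.93 and 0.74. Cyb561, Slc45a3, Irf2bp2 and Fam46b had r from 0.88 to 0.85. Both values come from the libraries used for the ranking, so the values for deviations were partly set by it. Bcl2l1, which encodes an inhibitor of apoptosis, had 93.7 ± 14.7 CPM in controls, 134 ± 14.4 with celecoxib and 89.95 ± 17.2 with rofecoxib (SD, n = 8). These levels were also partly set by the ranking, since Mthfd2 was itself chosen by its values, and are a description only. None of the 7 is a member or in a pathway list. Of the members, Shmt2 came closest at r = 0.45 and Mthfd1 was farthest at -0.73, or 0.11 and -0.28 for deviations from group means.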

How the data were processed

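RNA of 24 aorta libraries was measured by polyA RNA-seq with TruSeq libraries and 13 PCR cycles, per the labels' protocols. The build was mm9 and the tools included CASAVA 1.8.2 and STAR 2.5.1b, per the submitters' processing notes. The sources used here do not give the counter, its annotation or its use of strand. Reads of overlapping or near-identical genes could therefore not be told apart. The authors deposited whole-number counts per gene, whose totals had been made nearly equal (21652432 to 21687906) by a step not given in those sources.

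Counts were tested with edgeR 4.0.16 (R 4.3.3): filterByExpr, TMM factors and 1 robust quasi-likelihood fit to all 24 libraries (21 residual degrees of freedom), with Benjamini-Hochberg adjustment over 14451 genes. Called genes are those with an adjusted p under 0.05. The SE is the log2 fold change over the square root of F, and log2 CPM used a prior count of 2. GC content and length came from GENCODE M21, and the GC correction was a smooth offset per library over 14075 genes. DESeq2 1.42.0, other filters, scalings and covariates, a replicate block and leaving out libraries were alternatives. No pair of replicates agreed within sampling noise. Code was tested on simulated data.

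The members, the 7 gene lists, the 11 marker lists and the naming rule were chosen with earlier results of these data known. The rule named all members, leading called genes and the largest changes of each list, 16 stress and folate genes, and the 8 genes most like Mthfd2; the text names part of these, and a few genes the rule took are not reported here.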

Additional observations from a re-analysis of the deposited data

Results flagged for a closer look

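A single library lay far from the rest of its group for 4 genes, by Dixon's ratio of gap to range over 30 groups of 8 libraries, of which chance flags about 1 in 20. Asns in control 6 had 25.43 CPM, where the next control had 8.846 and the lowest 3.059. Shmt1 in control 6 had 8.416 CPM, with the next at 3.856 and the lowest at 1.553. Psph in control 6 had 10.42 CPM, with the next at 7.856 and the lowest at 5.694. Phgdh in rofecoxib 7 had 27.04 CPM, with the next at 20.41 and the lowest at 14.74.

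The celecoxib and rofecoxib groups differed past the threshold, by the direct contrast between them, for 2 members. The log2 difference of celecoxib from rofecoxib was -0.2275 for Mthfd1, lower in 8 of 8 celecoxib libraries than the rofecoxib mean (edgeR adjusted p = 0.00483). For Shmt2 it was 0.243, higher in 8 of 8 (edgeR adjusted p = 0.0197), and 0.10 after GC correction (adjusted p = 0.224).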

How the results depend on the processing

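For celecoxib against control, the 204 genes called became 86 with no low-count filter, 88 with only the groups compared, 321 with GC correction, 316 with the adipocyte score as a covariate and 479 in DESeq2. For rofecoxib against control, the 766 became 294, 461 and 179 with no filter, only the groups compared and GC correction, 1683 with the Schwann cell score, 215 without control 6 and rofecoxib 2 and 1594 in DESeq2. Between the drugs, the 3275 became 1364 with GC correction, of which 1001 were among the 3275. Of the 9 members, the 1 called with celecoxib became 0 with no filter (Mthfd1 adjusted p = 0.0705) or only the groups compared (0.0715), and 2 with the Schwann cell score or DESeq2, which added Atf4. The 1 called with rofecoxib became 0 without control 6 and rofecoxib 2, and the 2 between the drugs became 1 with GC correction. Leaving out 1 library gave 42 (without celecoxib 5) to 312 (without celecoxib 2) genes with celecoxib, 170 (without control 7) to 1121 (without control 4) with rofecoxib and 2147 (without rofecoxib 8) to 3739 between the drugs. Members called then ran from 0 to 2, 0 to 1 and 1 to 2. Among other genes, Serinc1 between the drugs turned from -0.154 to 0.00206 and Atf5 from 0.205 to -0.0259 with GC correction. The cause was not tested.

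Same-numbered libraries deviated together in 10 of 24 pairs (r over 0.1; range -0.39 to 0.32), and 5 were closest to their own number, so the numbers were not taken to pair samples. With the replicate number as a block, 187, 653 and 3193 genes and 1, 1 and 2 members were called with celecoxib, with rofecoxib and between the drugs. Among the tested members, Asns had the largest SE of the log2 fold change in each comparison (0.293, 0.295 and 0.296), and Shmt1 had the fewest counts (30 to 185).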

Other observations

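Of 11 tested mitochondrial chaperones and proteases, none was called with celecoxib by edgeR or DESeq2, beside 1.41% of all genes in edgeR. Their median log2 fold change was -0.12, and 4 had an unadjusted p under 0.05. With rofecoxib 1 fell, the protease Htra2, at -0.27 ± 0.08 (edgeR adjusted p = 0.0446), beside 2.87% of all genes lower. That call was lost after GC correction (adjusted p = 0.129) and in 12 of 24 fits that left out a library. Htra2 was higher with celecoxib than with rofecoxib by 0.41 ± 0.08 (adjusted p = 0.00161). Atf3, a stress-induced transcription factor in the ATF4 target list, had 120 ± 89.3 CPM in controls, 56.1 ± 27.5 with celecoxib and 187 ± 44.3 with rofecoxib (SD, n = 8). Controls alone spanned 37.2 to 296 CPM. Atf3 was lower with celecoxib than with rofecoxib by a log2 difference of -1.74 ± 0.38 (edgeR adjusted p = 0.00386), and neither drug passed against control (adjusted p = 0.130 and 0.262).

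Of the marker lists, smooth muscle had 3 of 10 genes higher with each drug, and skeletal muscle 1 of 5 tested higher with celecoxib. Of all genes, 0.913% were higher with celecoxib and 2.43% with rofecoxib. With rofecoxib, 3 of 10 fibroblast and 2 of 10 macrophage markers fell, beside 2.87% of all genes. DESeq2 called 4 and 6, and 9 macrophage markers had an unadjusted p under 0.05. Cardiac markers had 2 of 7 higher with rofecoxib, where rofecoxib 2 summed to 584.7 CPM and the other rofecoxib libraries to 75.4 to 120.1 CPM. Without rofecoxib 2, a fit chosen after seeing the data, these counts were 1 fibroblast, 0 macrophage and 1 cardiac marker, and the cardiac median turned from 1.11 to -0.16. Without control 6 they were 3, 0 and 1. Smooth muscle markers higher with rofecoxib became 2 without rofecoxib 2 and 1 without control 6. Those higher with celecoxib were 3 and 2 in the same fits. No marker of endothelium, lymphocytes, adipocytes, Schwann cells or proliferating cells was called for either drug against control by edgeR. At an unadjusted p under 0.05 there were 4 brown and 1 white adipocyte markers with celecoxib and 3 and 0 with rofecoxib, and DESeq2 called 1 brown adipocyte marker with celecoxib. Endothelium had 1 such marker with celecoxib and 0 with rofecoxib, proliferating cells had 1 with each drug, and Schwann cells and the 4 lymphocyte markers tested had 0 with either. DESeq2 called none of those to which it gave an adjusted p; with rofecoxib it gave none to 3 of the 4 lymphocyte and 4 of the 10 proliferating cell markers.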
